A study of Homo sapiens with 4 samples.

Results

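The genes described here are the CDKN2A locus genes of the short arm of chromosome 9 at band 9p21: CDKN2A, CDKN2B, MTAP, DMRTA1, IFNE, KLHL9 and MLLT3. They are 7 named genes among 19974 protein-coding genes and among the 26 of the window, listed by name with earlier results of these data known, and were described with every peak record that touches chromosome 9 between 20000000 and 24000000 (GRCh38). That 4 Mb window held 26 of the 56875 records in the sg3 list and 19 of the 40332 records in the V2 list. The cells were KYSE30, an established line from a human oesophageal squamous cell carcinoma, grown in DMEM with fetal bovine serum. Chromatin was immunoprecipitated with an antibody to H3K9la, histone H3 lactylated at lysine 9. The study has 4 libraries, an immunoprecipitate and an input for each of 2 arms that the labels call sg3 and V2; no treatment, time or expansion of those names was given in the labels. Each arm had 1 peak list from 1 library, so no difference between the arms has a replicate check and no p-value is given for one. The library behind the V2 list was taken as the V2 immunoprecipitate, although the list is filed with the V2 input.

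CDKN2A encodes a pair of unrelated tumour suppressors from separate first exons: p16, which blocks the kinases CDK4 and CDK6 and so keeps RB active, and p14ARF, which restrains the ubiquitin ligase MDM2. CDKN2B, next to it, encodes p15, a close relative of p16, and the neighbouring MTAP encodes the enzyme that recycles methylthioadenosine into methionine. The locus is among the regions most often deleted in human cancers, squamous carcinomas included, and it can also be silenced by Polycomb complexes or DNA methylation. Histone lactylation is a mark of lysine residues that has been associated with active promoters and enhancers. A missing peak can come from deleted DNA or from DNA that is present without the mark, and deletion and silence cannot be told apart from peaks alone.

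The promoters of CDKN2A (at both of its starts), CDKN2B, KLHL9, MTAP, MLLT3 and IFNE show where the records began and ended, and are given here from RefSeq (GRCh38.p14), each running 5′ to 3′ on the strand of its gene from 250 bases before the start to 50 bases from it. Capitals mark the bases under a record of both lists. The p14ARF promoter was covered in full by both lists, p16 over 220 bases and KLHL9 over 32 bases, whereas the promoters of CDKN2B, MTAP, MLLT3 and IFNE carry no capital. The DMRTA1 promoter, also under no record, is not printed.
CDKN2A, p14ARF start (chr9:21995275-21995574, minus strand): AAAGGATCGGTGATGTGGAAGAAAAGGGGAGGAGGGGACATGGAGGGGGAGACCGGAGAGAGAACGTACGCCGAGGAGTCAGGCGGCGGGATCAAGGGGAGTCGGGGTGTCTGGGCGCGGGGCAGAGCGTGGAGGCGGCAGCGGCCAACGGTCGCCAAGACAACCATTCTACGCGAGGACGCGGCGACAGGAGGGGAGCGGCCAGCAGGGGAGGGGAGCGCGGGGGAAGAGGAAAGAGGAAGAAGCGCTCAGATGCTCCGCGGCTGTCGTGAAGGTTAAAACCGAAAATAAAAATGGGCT
CDKN2A, p16 start (chr9:21974808-21975107, minus strand): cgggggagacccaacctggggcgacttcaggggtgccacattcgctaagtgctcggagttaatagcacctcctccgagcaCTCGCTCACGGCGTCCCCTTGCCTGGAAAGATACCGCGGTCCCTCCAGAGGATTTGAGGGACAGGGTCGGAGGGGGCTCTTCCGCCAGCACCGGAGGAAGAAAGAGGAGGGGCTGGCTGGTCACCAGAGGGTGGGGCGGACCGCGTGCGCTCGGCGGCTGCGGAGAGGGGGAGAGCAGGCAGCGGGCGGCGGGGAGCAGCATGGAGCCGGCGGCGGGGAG
CDKN2B (chr9:22009256-22009555, minus strand): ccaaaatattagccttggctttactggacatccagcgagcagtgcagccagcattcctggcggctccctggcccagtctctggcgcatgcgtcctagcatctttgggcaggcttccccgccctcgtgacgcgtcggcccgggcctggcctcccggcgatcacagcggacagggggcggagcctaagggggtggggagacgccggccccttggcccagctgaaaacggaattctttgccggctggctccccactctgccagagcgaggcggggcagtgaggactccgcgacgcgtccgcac
KLHL9 (chr9:21335355-21335654, minus strand): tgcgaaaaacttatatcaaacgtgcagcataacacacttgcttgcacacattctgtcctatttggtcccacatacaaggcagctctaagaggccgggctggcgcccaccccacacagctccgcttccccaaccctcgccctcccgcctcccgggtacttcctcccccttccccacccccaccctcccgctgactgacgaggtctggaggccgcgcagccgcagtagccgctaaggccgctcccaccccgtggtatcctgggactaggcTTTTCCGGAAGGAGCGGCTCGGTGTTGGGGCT
MTAP (chr9:21802386-21802685, plus strand): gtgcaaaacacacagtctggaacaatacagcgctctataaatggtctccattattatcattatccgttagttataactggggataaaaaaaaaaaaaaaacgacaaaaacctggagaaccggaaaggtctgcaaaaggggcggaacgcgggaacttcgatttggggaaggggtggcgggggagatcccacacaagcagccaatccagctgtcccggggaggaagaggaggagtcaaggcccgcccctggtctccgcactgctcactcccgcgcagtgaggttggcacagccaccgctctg
MLLT3 (chr9:20622450-20622749, minus strand): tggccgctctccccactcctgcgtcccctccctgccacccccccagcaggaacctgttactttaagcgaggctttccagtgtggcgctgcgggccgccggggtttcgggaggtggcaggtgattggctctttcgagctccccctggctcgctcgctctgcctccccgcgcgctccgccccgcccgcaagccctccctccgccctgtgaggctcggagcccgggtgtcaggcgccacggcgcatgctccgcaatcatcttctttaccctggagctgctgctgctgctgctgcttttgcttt
IFNE (chr9:21482264-21482563, minus strand): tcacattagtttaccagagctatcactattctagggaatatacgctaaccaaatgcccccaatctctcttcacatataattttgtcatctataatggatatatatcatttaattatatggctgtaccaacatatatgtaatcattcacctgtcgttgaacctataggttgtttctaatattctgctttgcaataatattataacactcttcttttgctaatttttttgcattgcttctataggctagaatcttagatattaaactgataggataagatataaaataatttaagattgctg

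Of the 7 members, CDKN2A and KLHL9 had a record within 1 kb of a gene end in both lists, CDKN2B and MTAP had one in the sg3 list only, none had one in the V2 list only, and DMRTA1, IFNE and MLLT3 had none in either list. The same classes held 28.3%, 18.9%, 0.501% and 52.3% of all 19974 protein-coding genes. The sg3 list thus marked 4 of 7 members against 47.2% of all genes, and the V2 list 2 of 7 against 28.8%. These shares are near the background, so the counts are not a result about the members, and what follows describes where each record lay. The plot of the window shows every record by position and fragments at its summit.

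**Figure D1:**
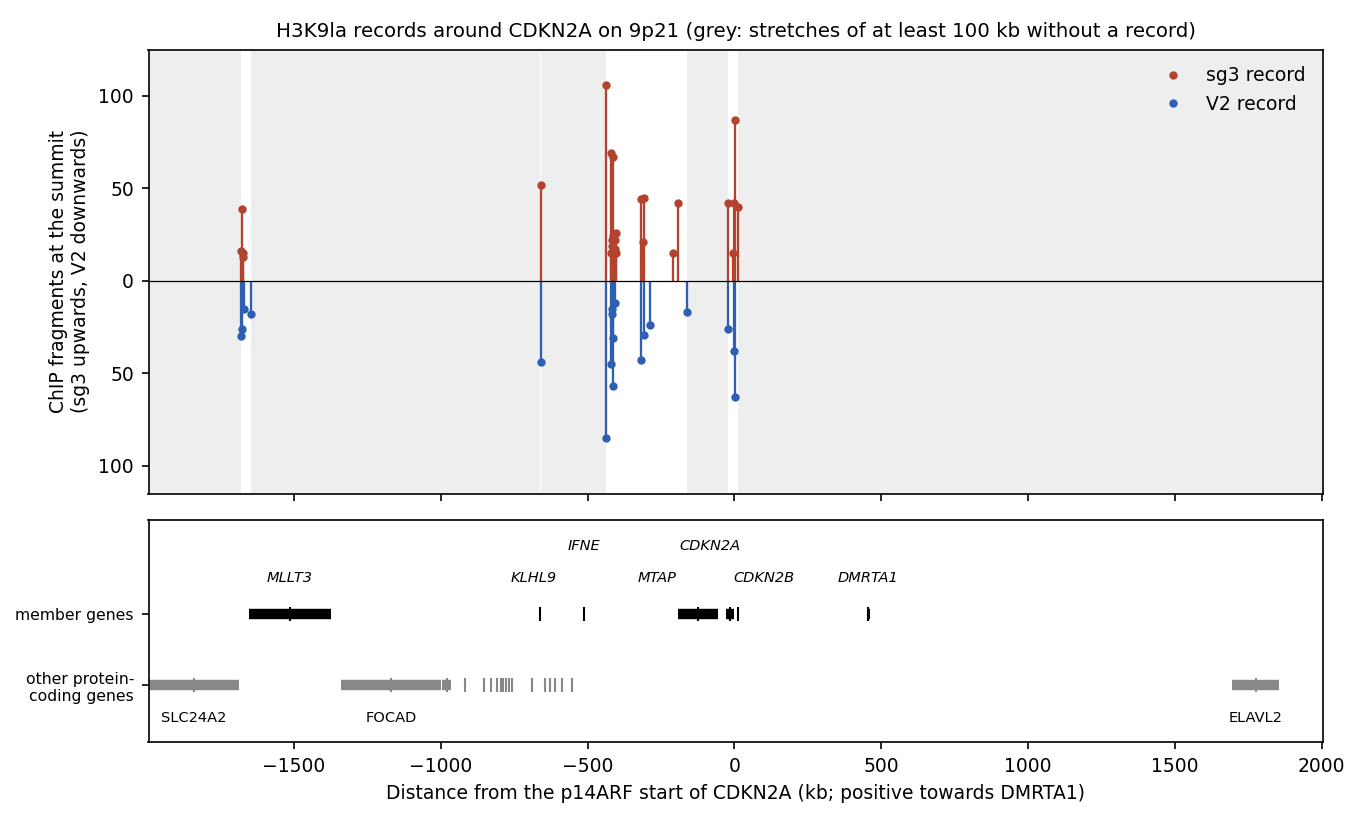
Records of the sg3 list and the V2 list across the 4 Mb window, plotted by distance from the p14ARF start of CDKN2A (kb, x axis) and by ChIP fragments at the summit (y axis, sg3 upwards and V2 downwards), with members in black and other protein-coding genes in grey below. Grey shading marks the 5 stretches of at least 100 kb without a record, and all 26 sg3 and 19 V2 records lie before DMRTA1.

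The record at a member with the highest −log10 q in each list lay at the p14ARF start of CDKN2A (chr9:21967752-21995324, minus strand), close to the start of the antisense non-coding RNA CDKN2B-AS1. In the sg3 list it covered 21994895 to 21996398, with 10.4-fold enrichment, a −log10 q of 57.3 and 87 fragments at the summit over a background of 7.47. In the V2 list it covered 21994968 to 21996124, with 9.71-fold enrichment, a −log10 q of 36.6 and 63 fragments over a background of 5. The summits were 2 bases apart, 496 and 494 bases upstream of the p14ARF start. Both records thus ran over the p14ARF start and began inside CDKN2B-AS1, 104 bases (sg3) and 177 bases (V2) from its start. Fold enrichment, called fold from here on, is the authors' deposited value, and the fragments and backgrounds were recovered from it and from the deposited −log10 p. The record's −log10 q was above that of 93.7% of the sg3 list and 89.5% of the V2 list.

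The sg3 library was read as the deeper one. Its mean coverage, read from the lowest background of each list, was 2.41 fragments against 1.94, a ratio of 1.24 if both lists used the same genome size, so fragments are also given relative to this mean. On that scale the p14ARF summit stood at 36.1 times the mean in sg3 and 32.5 times in V2. Without replicates it cannot be said whether these values differ beyond library variation.

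At the p16 start, 20.5 kb away along the same gene, both lists had a weaker record. The sg3 record, 21974508 to 21975498, had a fold of 5.53, a −log10 q of 17.5 and 42 fragments, 17.4 times the mean. The V2 record, 21974622 to 21975027, had a fold of 3.52, a −log10 q of 5.40 and 26 fragments, 13.4 times the mean. The summits were 28 bases apart. Here the V2 record was near the bottom of its own list, with a −log10 q above that of only 10.0% of V2 records, while the sg3 record was above 62.8% of sg3 records. Within each list, then, the record over the p14ARF start had a higher fold enrichment than the record over the p16 start.

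CDKN2A carried further records between its starts. A record just inside the p14ARF start was in both lists, at a fold of 3.85 and 42 fragments in sg3 and of 3.55 and 38 fragments in V2, and summits 55 bases apart. A record in the body of the gene, 21989746 to 21990234, was in the sg3 list only, at a fold of 4.68 and 15 fragments. That makes 4 sg3 records and 3 V2 records over the gene.

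CDKN2B (chr9:22002903-22009313, minus strand) was marked in the sg3 list only. Its record ran from 22008839 to 22009211 and ended 94 bases inside the gene from its start, at a fold of 3.84, a −log10 q of 11.0 and 40 fragments, 16.6 times the mean. The nearest V2 record, the one at p14ARF, lay 13181 bases from the CDKN2B start and 6779 bases from the other end of the gene. The CDKN2B record was a low one for its list, with a fold enrichment above that of 22.7% of sg3 records at gene ends, and it is lost when a fold enrichment of at least 4 is asked for. The plot of the CDKN2A and CDKN2B stretch places these records beside the gene starts.

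**Figure D2:**
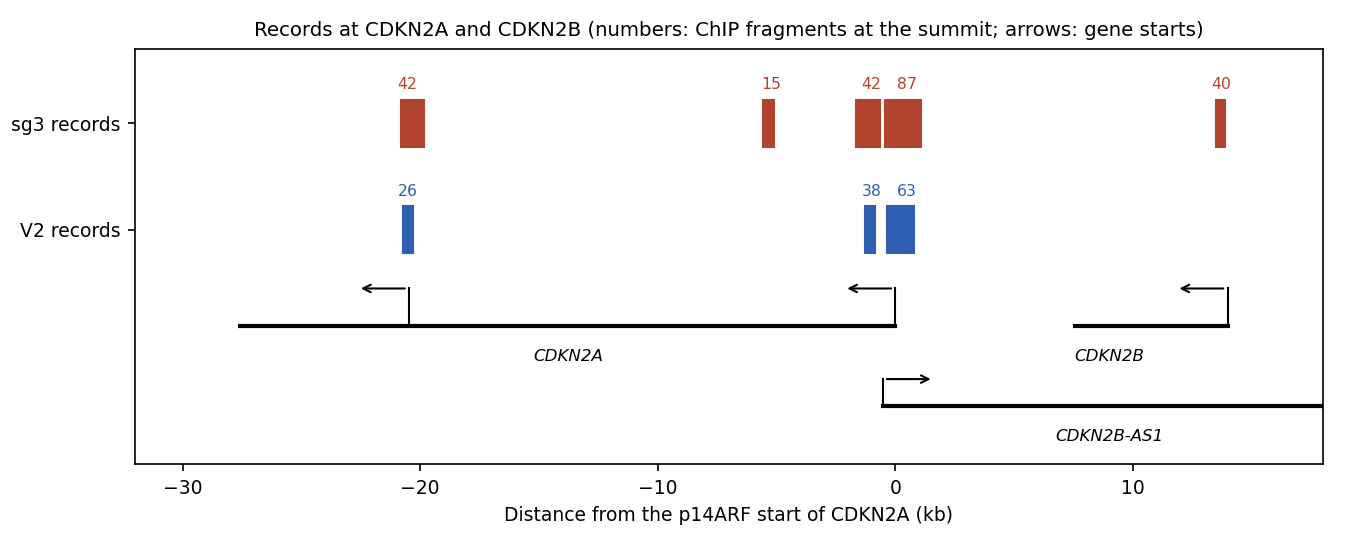
Records of both lists around CDKN2A and CDKN2B, drawn to scale by distance from the p14ARF start (kb, x axis) in a row for each list, with ChIP fragments at the summit above each block and gene bodies and starts (arrows) below. The p14ARF blocks hold the most, 87 in sg3 and 63 in V2, and the CDKN2B block, at 40, is in sg3 alone.

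MTAP (chr9:21802636-21941115, plus strand) was marked at its start in the sg3 list only. The record, 21802693 to 21803279, began 57 bases inside the gene and had a fold of 5.90, a −log10 q of 18.7 and 42 fragments, 17.4 times the mean. The V2 list had its only MTAP record in the body of the gene, 21833139 to 21833497 and 30503 bases from the start, at a fold of 4.11, a −log10 q of 4.75 and 17 fragments, 8.76 times the mean. The lists thus marked MTAP at different places, and no record of one overlapped a record of the other there. With both lists cut to equal length, MTAP and CDKN2B each kept 1 sg3 record and 0 V2 records at a gene end; the part of the greater sg3 depth was not tested.

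KLHL9 (chr9:21329665-21335404, minus strand), an adaptor of the CUL3 ubiquitin ligase that acts in mitosis, was marked at its start in both lists. The sg3 record, 21334861 to 21335399, had a fold of 7.79, a −log10 q of 28.9 and 52 fragments, 21.6 times the mean. The V2 record, 21334956 to 21335386, had a fold of 10.2, a −log10 q of 27.0 and 44 fragments, 22.7 times the mean. The summits were 7 bases apart. Among the member starts in both lists, KLHL9 was the one with the higher deposited fold in V2. The recovered background there was 5.8 in sg3 and 3.0 in V2. Because fold is a ratio to that background, the higher V2 fold does not by itself show more of the mark.

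IFNE (chr9:21480839-21482313, minus strand), an epithelial type I interferon, had no record within 1 kb in either list, and lies inside the non-coding RNA gene MIR31HG. The nearest records, 76774 bases away in sg3 and 76829 in V2, were at the start of MIR31HG, at a fold of 6.49 and 106 fragments in sg3 and of 4.98 and 85 fragments in V2. The other 15 type I interferon genes of the window, IFNB1, IFNW1 and 13 IFNA genes (IFNA1, IFNA2, IFNA4, IFNA5, IFNA6, IFNA7, IFNA8, IFNA10, IFNA13, IFNA14, IFNA16, IFNA17 and IFNA21), also had no record in either list. Nor had SLC24A2, FOCAD, HACD4 and ELAVL2, the remaining protein-coding genes of the window. By the 1 kb rule for gene ends, 52.3% of all protein-coding genes were in neither list.

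DMRTA1 (chr9:22446824-22455740, plus strand), a DM-domain transcription factor, had no record nearer than 437613 bases in sg3 and 450700 in V2. MLLT3 (chr9:20341669-20622499, minus strand), a reader of acylated histone lysines in the super elongation complex, had no record at either end. The V2 list had 1 record in the body of MLLT3, 20350255 to 20350672, at a fold of 6.28, a −log10 q of 8.70 and 18 fragments at the lowest background of that list. The MLLT3 start was 299909 bases from the nearest sg3 record and 271827 from the nearest V2 record. Counting any record over a gene or within 1 kb of it, the sg3 list marked 4 of 7 members (55.6% of all genes) and the V2 list 4 of 7 (37.6%).

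**Figure D3:**
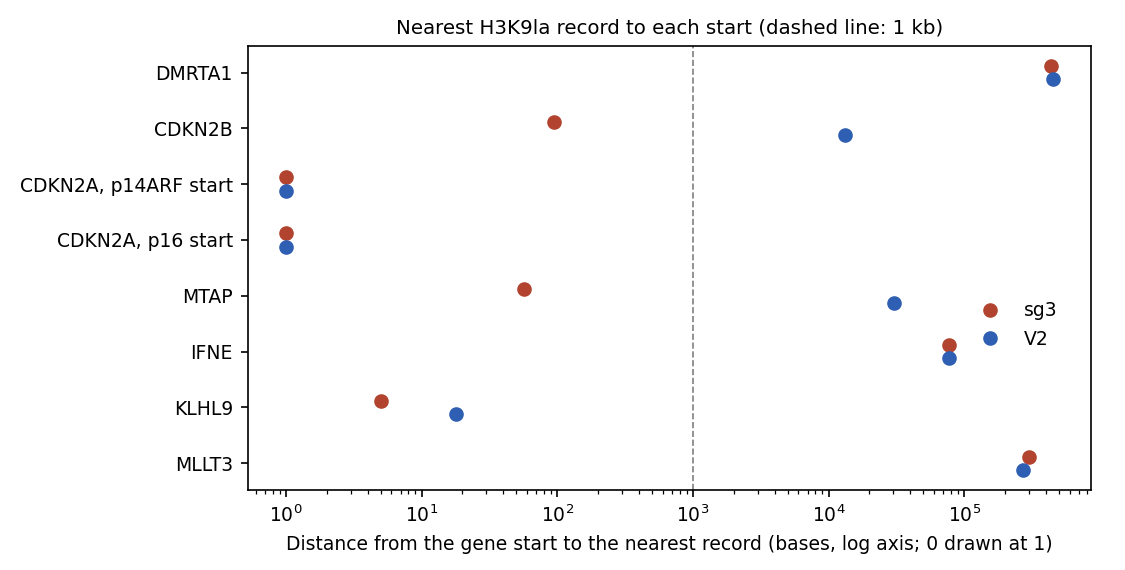
Distance from each member's start to the nearest record of each list (bases, log scale on the x axis, a distance of 0 drawn at 1), with 1 point for each list and a dashed line at 1 kb. The starts of p14ARF, p16 and KLHL9 lie at or next to a record in both lists, CDKN2B and MTAP only in sg3, and MLLT3, IFNE and DMRTA1 lie 76774 bases or more from one.

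The CG dinucleotide, which reads the same on both strands, was counted in each 300-base promoter. It occurred 28 times at p14ARF, 26 at p16, 25 at CDKN2B, 24 at MLLT3, 19 at KLHL9, 16 at DMRTA1, 15 at MTAP and 2 at IFNE. Of all 22132 protein-coding promoters, 70.1% held at least 10. Of those with at least 10, 18.9% were overlapped by a record of both lists and 57.4% by none, and of those with fewer, 3.73% and 90.5%. The promoters of MLLT3, DMRTA1, CDKN2B and MTAP thus held at least 10 CG and were under no record. That was the more common state of such promoters in these lists. At CDKN2B and MTAP the sg3 record lay just outside the promoter, 94 and 57 bases from the start. The other type I interferon promoters of the window with a listed start held 1 to 3 CG each, in the class of fewer than 10.

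Between the records lay 5 stretches of at least 100 kb without a record of either list, which took up 91.3% of the window. The first ran from 19409430 to 20314312, crossing the lower edge of the window, and held SLC24A2. The second, from 20350673 to 21334860, spanned 984.2 kb with the start of MLLT3 and 12 whole protein-coding genes from FOCAD to IFNA5. The third, from 21335400 to 21559086, held 6, IFNE among them. The fourth, from 21833498 to 21974507, held most of the body of MTAP and the lower end of CDKN2A. It held no whole protein-coding gene, but the whole of the non-coding CDKN2A-AS1. The fifth began at the CDKN2B record and ran from 22009212 to 25677691, past the upper edge of the window, with DMRTA1, ELAVL2 and IZUMO3 inside. Every record of the window lay between 20314313 and 22009211.

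The fifth stretch, 3668480 bases long, ranked 49 by length among the 59828 stretches of chromosomes 1 to 22 and X and 4 on chromosome 9. In the genome 84 stretches reached 3 Mb. Assembly gaps and centromeres also give stretches, and the ranks did not set them apart. The second, with 12 genes, was passed in length by 22 stretches that held as many genes. Nothing in the lists says whether DNA of these stretches was present in KYSE30. The control fragments at the marked members were inferred from the deposited fold and −log10 p, and which library served as control is not known. For the sg3 list they came to 43 fragments within 1 kb at the p14ARF summit, 14 at the p16 summit, 20 at CDKN2B, 13 at MTAP and 12 at KLHL9, the last 4 over a fragment length of 359 bases. For the V2 list they came to 5 at p14ARF, 6 at p16 and 3 at KLHL9 over that length. Control depth differed, at an inferred 2.07 control fragments per ChIP fragment for sg3 and 0.909 for V2. Control counts were therefore not compared between the lists.

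Background at the members was set beside that of all records at gene ends, whose median was 9.9 in sg3. CDKN2B, at 9.67, was above 47.8% of sg3 gene-end records, and p14ARF, at 7.47, above 32.3%. MTAP, at 6.29, was above 23.0% and KLHL9, at 5.8, above 20.4%. In V2 the median was 10.4, with p14ARF above 15.3% and KLHL9 above 4.43%. All gene-end records of the members thus lay below the median background of the gene-end records of their list, except the one just inside p14ARF in sg3, which was above 51.7%. Whether copy number had a part in this was not tested.

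**Figure D4:**
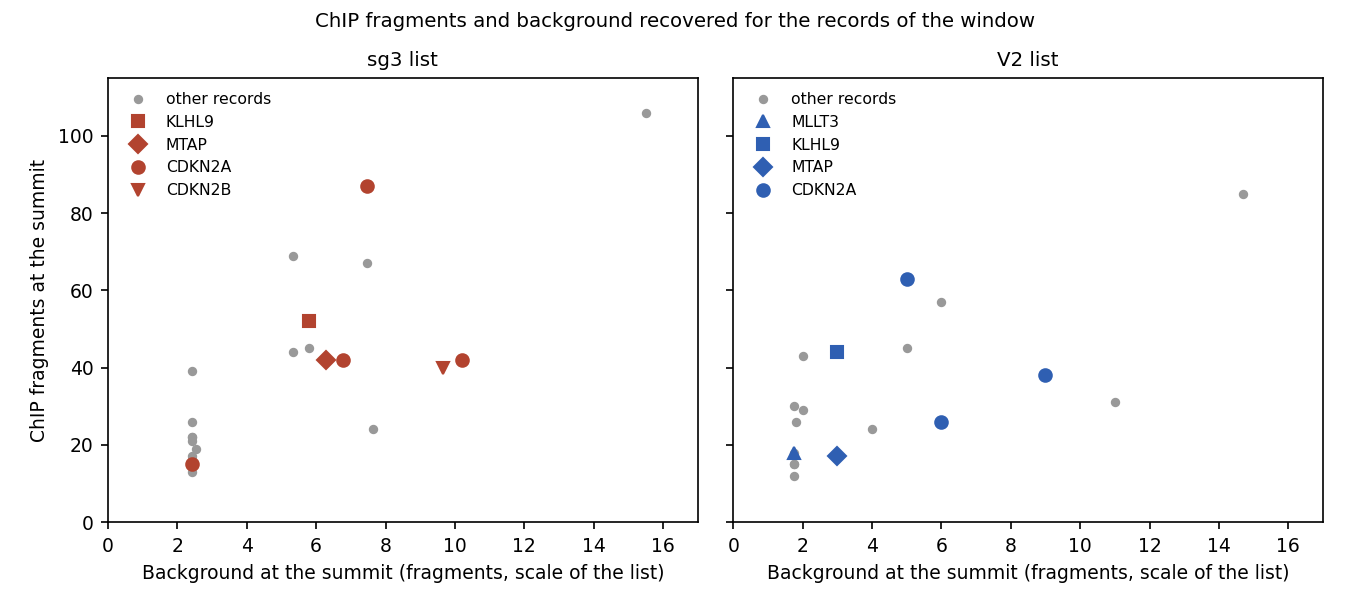
Recovered background (x axis, fragments on the scale of the list) and ChIP fragments at the summit (y axis) of the window's records, in a panel for each list, with coloured symbols for members and grey points for other records. Of the coloured points, p14ARF is the highest, at 87 fragments in sg3 and 63 in V2.

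The window held fewer records per Mb than chromosome 9 as a whole, 6.5 against 18.5 in sg3 and 4.75 against 12.8 in V2. It held more than either neighbouring 4 Mb, where sg3 had 3.25 per Mb below and 2.25 above and V2 had 1.75 and 1.0. It ranked 256 of 746 windows of 4 Mb from the fewest records in sg3 and 279 in V2, with medians of 50 and 33 records per window. By 1 Mb windows the part from 21 to 22 Mb, which holds KLHL9, IFNE, MTAP and CDKN2A, ranked 2100 and 2195 of 3020 from the fewest. The sparse and the dense parts of the locus thus lay side by side. Within that 1 Mb, a 100 kb bin with the start of MIR31HG and no member gene held 11 sg3 and 7 V2 summits. Of the window's records, 13 of 26 in sg3 (50%, exact Clopper-Pearson 95% interval 29.9 to 70.1) and 13 of 19 in V2 (68.4%, 43.4 to 87.4) overlapped the other list by at least 1 base. Over the genome the shares were 52.5% and 86.2%. Intervals cover counting error only.

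The pathways around the members were read from gene lists by the same 1 kb rule. Of the 18 genes of the CDK4/6-RB pathway, 12 were marked in both lists, 3 in sg3 only and 3 in neither. CDKN2B was among the 3 in sg3 only, and its relative CDKN2D was in neither. CDK6, a kinase that p16 and p15 bind, had a fold of 11.4 in sg3 and 2.78 in V2, and CDK4 had 5.61 in sg3 and no V2 record. E2F3, a transcription factor released by RB, had 7.98 and 5.46, CDKN1B, the inhibitor p27, 8.04 and 5.19, and CCND1, cyclin D1, 8.41 and 4.05. The recovered background was 9.2 in sg3 and 19.0 in V2 at CDK6, and 17.5 and 20.8 at E2F3. It was 13.5 and 17.2 at CDKN1B, and 11.6 and 19.0 at CCND1. Fold is a ratio to this background, so a lower V2 fold does not by itself show less of the mark. Whether the mark differed between the arms at the pathway genes was not tested. RBL1 was in sg3 only, and CDKN1C and CCND2 were in neither.

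Of the 10 genes of the ARF-MDM2 axis, 4 were in both lists, 5 in sg3 only and TWIST1 in neither. MDM2, the ubiquitin ligase that p14ARF restrains, had a fold of 10.4 in sg3 and 11.0 in V2, and a −log10 q of 98.8 and 87.3. MDM4 had 4.51 and 4.33, and BCL6 had 6.43 and 3.74. NPM1, a nucleolar partner of p14ARF, had 4.68 in sg3 and no V2 record, and HUWE1, UBTF and DMTF1 were also in sg3 only.

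Of the 16 genes of methionine salvage and the PRMT5 complex, 5 were in both lists, 7 in sg3 only and 4 in neither. MTAP was among the 7, with APIP, GOT1, MAT2A, PRMT5, WDR77 and RIOK1. PRMT5, the arginine methyltransferase inhibited by methylthioadenosine, had a fold of 6.76 in sg3, and MAT2A, which makes S-adenosylmethionine, 5.22. ADI1, SRM, MAT2B and CLNS1A were in neither.

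Of 12 genes listed as Polycomb regulators, 8 were in both lists, EED and SUZ12 in sg3 only and BMI1 and PHC2 in neither. The 8 include the demethylases KDM6A and KDM6B, which are not Polycomb members. Action of the listed genes on the locus in these cells was not tested. KDM6B, a demethylase that removes the Polycomb mark, had a fold of 9.80 in sg3 and 7.18 in V2. Of the 14 genes around the super elongation complex and DOT1L, 8 were in both lists, ELL3, CDK9 and EAF1 in sg3 only, MLLT1 in V2 only and MLLT3 and EAF2 in neither. MLLT1, the close relative of MLLT3, had a fold of 2.44 in V2. DOT1L, the H3K79 methyltransferase, had 11.1 and 7.23, and ELL had 8.43 and 4.75.

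Of the 7 genes of CUL3 and its mitotic adaptors, 5 were in both lists, KLHL9, KLHL13, CUL3 and RBX1 among them, AURKB in sg3 only and KLHL21 in neither. Of 9 genes of type I interferon reception and signalling, IFNAR1 and STAT2 were in both lists, 6 in sg3 only, IFNAR2, JAK1 and IRF9 among them, and IRF7 in neither. IFNAR1 and IFNAR2 encode the receptor that IFNE and the other type I interferons bind. STAT2 had a fold of 13.4 in sg3 and 12.3 in V2. None of the 7 DMRT family genes, DMRTA1 included, had a record in either list. Over all 92 genes of these lists, 70 were marked in sg3 and 44 in V2. Of all 19974 protein-coding genes, 9428 (47.2%) and 5743 (28.8%) were. At a fold of at least 4 the list counts were 59 and 30. The lists were chosen with earlier results of these data known, so these counts are not a result about the pathways.

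**Figure D5:**
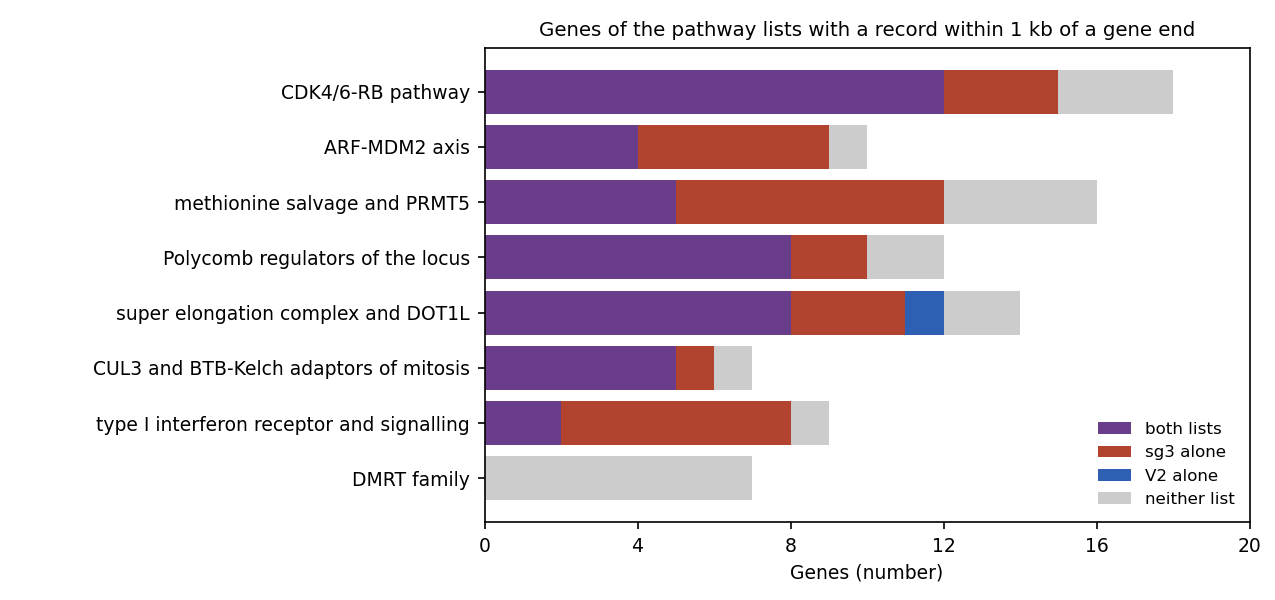
Number of genes (x axis) of each pathway list with a record within 1 kb of a gene end in both lists, in sg3 only, in V2 only or in neither. The DMRT family is in neither for all 7 genes, and only MLLT1 is in V2 alone.

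The labelled cell type was checked against marker genes. Of 15 squamous epithelial genes, 11 were marked in both lists and 4 in sg3 only, while 6 of 8 blood genes and 7 of 10 fibroblast and endothelial genes were in neither.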

How the data were processed

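Anti-H3K9la ChIP-seq and input libraries of KYSE30 cells were made in 2 arms, with 1 library of each kind per arm. MACS2 2.2.9.1 and Bowtie2 2.5.1, with FastQC 0.12.1, SAMtools 1.18, Trim Galore 0.6.10 and build hg38, are named per the submitters' processing notes, which give no settings. The authors deposited 1 peak list per arm, with a score, a fold enrichment (a ratio to the local background), a −log10 p-value, a −log10 q-value and a summit offset for each peak; these are the authors' values. Which library served as control is, for both lists, not given in the sources used here; read totals were not analysed here.

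Fragments and background at each summit were recovered from the deposited fold enrichment and −log10 p by MACS2's definitions, fold = (fragments + 1)/(background + 1) and p as a Poisson tail. All 56875 sg3 records and 40102 of 40332 V2 records gave whole fragments within 0.001 of −log10 p. A V2 fragment counts 0.909, read as the scaling of that library to its control. Summits are maxima, so these are not independent counts.

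Genes and promoters came from RefSeq (GRCh38.p14). A gene was called marked when a record lay within 1 kb of either end. All 7 members were named, with the other protein-coding genes of the window. Of each pathway list, the genes in 1 list only or in neither could be named, and up to 4 in both by the highest −log10 q in sg3; some of these genes are counted but not reported here by name. Members and lists were chosen with earlier results of these data known. Each arm has 1 list, so no test was run. The scripts were tested on simulated data and used Python 3.11.15, pandas 2.3.3, NumPy 2.4.6, SciPy 1.17.1 and matplotlib 3.10.9. Alternatives covered thresholds on q and fold, lists of equal length, merging within 1 kb, gene windows of 2.5 and 5 kb, overlap of 50% of each record and other window sizes.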

Additional observations from a re-analysis of the deposited data

How the results depend on the processing

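With 15 results and 78 alternatives, 57 alternatives gave a value close to the reported one and 21 moved it. Close meant within a fixed ratio for counts, bases and ranks, inside the reported interval for shares, and an identical length for the longest stretch. By this rule the fall of V2 pathway genes from 44 to 30, at a fold of at least 4, counted as close. Reversal of a direction was not scored. No paired analysis was possible because each arm has 1 library. Asking for a −log10 q of at least 10 left 16 sg3 and 9 V2 records in the window, in place of 26 and 19, and 7213 V2 bases in place of 11511. Lists of equal length left 17 sg3 records, and merging records within 1 kb left 17. The longest stretch grew from 3668480 to 4883139 bases with a −log10 q of at least 5 or 10 or with lists of equal length, to 4895952 at a fold of at least 4, and to 4950742 in the V2 list alone. Its rank was 49 in the genome and 4 on chromosome 9. Any record over the gene raised the V2 members from 2 to 4. The shared share of sg3 records was 26.9% when 50% of each record had to overlap, 75% at a −log10 q of at least 10 and 70.6% with lists of equal length, and that of V2 records was 36.8% and 88.9% for the first 2 of these. Counted from the fewest records, the 4 Mb window ranked 256 (sg3) and 279 (V2) of 746, on the sparse side. The 1 Mb window from 21 to 22 Mb ranked 2100 and 2195 of 3020, on the dense side. Among 4 Mb windows with at least 10 genes the ranks were 130 and 151 of 589. Equal length tests fewer records, and the cause of the other shifts was not tested. A fold enrichment of at least 4 also removed CDKN2B from the sg3 members, leaving 3. A summit needed at least 10 fragments in sg3 and 9 in V2 at the lowest background.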

Other observations

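The densest part of the window held no protein-coding gene. The 100 kb bin with the start of MIR31HG held 11 of the 26 sg3 records and 7 of the 19 V2 records. Among them, the record from 21574763 to 21576643 had a fold of 11.1 and 69 fragments in sg3. The V2 record that overlaps it, 21575162 to 21575917, had a fold of 6.98 and 45 fragments. A V2 record farther on, 21676953 to 21677550, had a fold of 13.4, a −log10 q of 33.5 and 43 fragments over a background of 2.0. The sg3 record that overlaps it, 21676962 to 21677550, had a fold of 7.12 and 44 fragments over a background of 5.32. Between SLC24A2 and MLLT3, sg3 had a record from 20317351 to 20319719 at a fold of 11.7 and 39 fragments, and V2 one from 20317374 to 20319368 with 8.81 and 26 fragments.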
